A study of Mus musculus with 20 samples.

Results

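Messenger RNA of the mouse heart was examined for 5-methylcytosine (m5C) in Nsun6 knockout (KO) and wild-type (WT) animals. KO hearts came from 8-week-old female C57BL/6J mice in which CRISPR/Cas9 had removed exons 3 and 4 of Nsun6, and WT hearts from 8-week-old female C57BL/6J mice with an intact gene. Each genotype had 2 heart libraries, out of 20 libraries from 5 tissues. In bisulfite sequencing an unmethylated cytosine is read as T, so the level of a site is the fraction of its reads that still carry C. Cytosines were included when they had at least 20 reads in all 4 heart libraries and when, in KO or in WT, both libraries held at least 2 unconverted reads and the mean level was at least 0.05. This left 523 of the 32378 listed sites, in 456 genes. The criteria were met in KO by 387 sites and in WT by 385, with 249 sites in both. Just inside the level limit lay Stoml2 at 0.0502 in KO and Gosr2 at 0.0506 in WT. Just outside it in WT lay C1qtnf4 at 0.0488 and Tgfb1 at 0.0477. Their KO levels, 0.0696 and 0.116, were above the limit, but the sites did not meet all the criteria in KO. No listed site lies in Nsun6, so the deletion itself could not be checked in these data. No source states that both libraries of a genotype are separate animals, so the p-values measure the spread between libraries, which may be technical.

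NSUN6 belongs to the NOL1/NOP2/SUN family of RNA methyltransferases, which transfer a methyl group to carbon 5 of cytosine. It methylates the acceptor end of certain transfer RNAs and a set of messenger RNAs, where its targets are known to begin with the methylated C of CTCCA and to lie in the loop of a hairpin. NSUN2, a relative of NSUN6, is the other main writer on messenger RNA and is known for sites followed by several G.

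The sequences below are those on which the comparison turned, taken from the mm10 reference on the strand of the transcript, with T for U. They run from 10 bases before the measured cytosine to 10 bases after it (9 in Myl4, where the exon then gives way to the next), and the capitals mark the 5 bases that start at the cytosine. The first 10 belong to sites that fell in KO, and the Tufm site is the second one with CTCTA.
Myl4 (chr11:104585755-104585774, plus strand): aagcacgtttCTCCAgggtg
Selenok (chr14:29973413-29973433, plus strand): cccagccctcCTCCAatggct
Hdlbp (chr1:93408002-93408022, minus strand): gtggctgcttCTCCAggcctg
3110040N11Rik (chr7:81783082-81783102, minus strand): gcctctacaaCTCCAgaggag
Igfbp6 (chr15:102149243-102149263, plus strand): ttgccagtgtCTCCAgatggt
Myom1 (chr17:71036408-71036428, plus strand): agtccgcaacCTCCAaacgga
Phyh (chr2:4928731-4928751, plus strand): atcaacaagcCTCCAgatgtt
Atpaf1 (chr4:115788321-115788341, plus strand): cagtggggcaCTCCAaacaaa
Tmem250-ps (chr2:26137716-26137736, minus strand): aaggcttgaaCTCCAgagcag
Tgm2 (chr2:158120252-158120272, minus strand): acttcgaatcCTCTAcgagaa
Tufm (chr7:126487451-126487471, plus strand): gcggcagccaCTCTAttgcga
For contrast, the site that rose in KO and 3 of the sites with the highest WT levels are shown next.
Ndufa12 (chr10:94220853-94220873, plus strand): tacaagtgacCGCAGtgaaga
Pabpc4 (chr4:123283481-123283501, plus strand): cagccttctcCGGCGtcgctg
Corin (chr5:72316366-72316386, minus strand): cctgcccaagCAGAAgtgaga
Aldh4a1 (chr4:139648946-139648966, plus strand): cagtggtagcCAGGGagagct

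Sequence classes were read on the strand of the transcript, always from the measured cytosine. CTCCA was found at 18 of the 523 sites (3.44%), CTCTA at 2, and CNGGG, a cytosine and any base followed by GGG, at 94. Over the 7920 listed sites with 20 reads in all 4 heart libraries the shares were 1.10% for CTCCA, 0.227% for CTCTA and 4.20% for CNGGG. Outside these 20 CTCCA and CTCTA sites, position 3 of the pentamer was mostly G, at 322 of 503 sites (64.0%). At the 3 positions before the cytosine the 20 sites shared no base, although 0 of 20 had G just before it, beside 125 of the other 503 (24.9%).

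Reads over the listed sites summed to 2145116 and 1230665 in KO replicates 1 and 2, against 2190870 and 2490772 in WT. KO replicate 2 was thus the shallowest, with a median of 28 reads per site where the other 3 libraries had 42 to 45. Unconverted reads were also counted over listed sites outside the 523 that had at least 20 reads in all 4 heart libraries. There 0.632% and 0.126% of reads were unconverted in KO, against 0.906% and 0.358% in WT. Replicate 1 was thus higher than replicate 2 in both genotypes. Without molecular identifiers PCR copies are not separate molecules, so the intervals and the limits given for 0 reads hold counting error alone. Of 12 markers of heart muscle, 4 had coverage in all 4 libraries (Myh6, Myl2, Ttn and Actn2). The lists for hepatocytes, adipocytes and lung epithelium had 0 of 8 each. Other lists did have covered markers, with 6 of 8 for endothelium, 2 of 8 for lymphocytes and 1 of 8 for erythroid cells. Skeletal muscle had 2 of 8 (Acta1 and Tnni2) and kidney tubule 1 of 8 (Aqp1). Which cells these reads came from was not tested.

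The first comparison asked which heart sites differ without NSUN6. In KO 11 of 523 sites fell (2.10%) and 1 rose (0.191%), 12 in all (2.29%), by edgeR's quasi-likelihood test on unconverted and converted counts (two-sided, Benjamini-Hochberg adjusted p under 0.05 over all 523). Of the 11, 10 read CTCCA and the other CTCTA. At an unadjusted p under 0.05, 64 sites passed, of which 37 were lower and 27 higher in KO. All 11 sites that fell had met the criteria in WT only, and the site that rose had met them in KO only. Of the 249 sites that met them in both, 0 passed. Part of each called difference was thus a condition of entry, which the p-values do not allow for. With no filter on level, 3 of the 7920 listed sites with 20 reads in all 4 heart libraries were called. Of the 12 calls 2 remained, at Myl4 and Selenok. The other call was a Tpi1 site that did not read CTCCA and was lower in KO. The plot of KO against WT levels shows the CTCCA and CTCTA sites along the axis at 0.

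**Figure D1:**
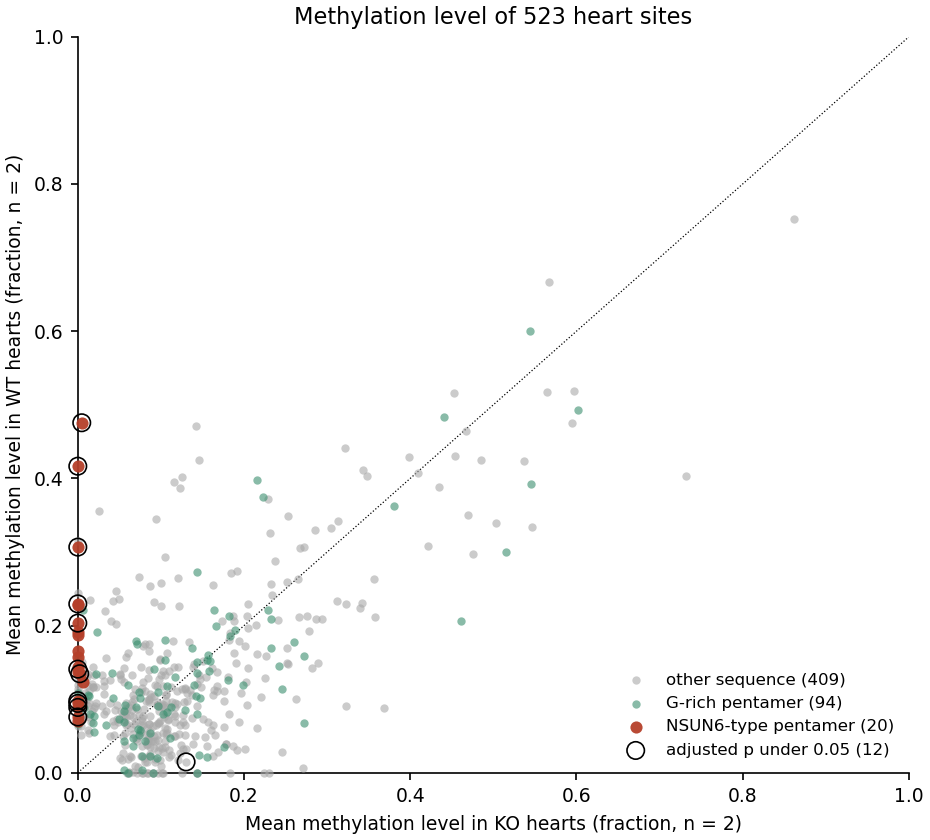
Mean methylation level (fraction of reads unconverted) of each of the 523 heart sites in KO (horizontal axis, n = 2) against WT (vertical axis, n = 2). Red points are the 20 sites with CTCCA or CTCTA (named the NSUN6-type pentamer in the pictures), green points the 94 with CNGGG (the G-rich pentamer) and grey points the other 409, circles mark the 12 sites past the edgeR threshold, and the dotted line marks equal levels. The 20 red points lie at KO levels between 0 and 0.00625.

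Myl4 and Myom1, genes of the contractile apparatus, each held a site that fell. Myl4, the essential myosin light chain of atrial muscle, had 0 of 837 and 0 of 329 reads unconverted in KO hearts, against 1729 of 7185 and 1638 of 7500 in WT hearts. The WT level was 0.230 ± 0.0157 (SD, n = 2), the 1166 KO reads allow a level of up to 0.00257, and the change had an edgeR adjusted p of 8.08e-27. The cytosine lies in exon 7 (chromosome 11, position 104585765), in the 3' UTR and 13 bases downstream, counting distances from the last base before the stop codon. Myom1 encodes myomesin, which links the thick filaments in the M-band. Its site in coding exon 4 (chromosome 17, position 71036418) had 0 of 595 and 0 of 161 reads unconverted in KO, against 19 of 136 and 4 of 71 in WT. The level fell to 0 in KO, against 0.0980 ± 0.0590 in WT (edgeR adjusted p = 0.000133). The groups did not overlap at either site, although the 2 WT libraries of Myom1 differed from each other by more than those of Myl4.

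Energy metabolism was represented by Phyh and Atpaf1. Phyh, the peroxisomal enzyme that begins the breakdown of phytanic acid, had 0 of 83 and 0 of 333 unconverted KO reads, against 69 of 144 and 22 of 164 WT reads, in coding exon 5 (chromosome 2, position 4928741). Its WT level was 0.307 ± 0.244 (SD, n = 2), the widest spread among the sites that fell, and edgeR gave an adjusted p of 0.000162. Without KO replicate 2 the adjusted p was 0.320. Atpaf1, an assembly factor of the F1 part of ATP synthase, had 0 of 238 and 0 of 215 reads unconverted in KO, against 20 of 324 and 58 of 457 in WT, in coding exon 2 (chromosome 4, position 115788331). Its level fell to 0 in KO, against 0.0943 ± 0.0461 in WT (edgeR adjusted p = 0.000187), and both genotypes again lay apart.

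Growth factor and receptor genes carried the highest levels of the sites that fell. Igfbp6, a secreted protein that binds insulin-like growth factors, had 0 of 110 and 1 of 105 reads unconverted in KO hearts, against 276 of 479 and 129 of 344 in WT hearts. The level fell to 0.00476 ± 0.00673 in KO, against 0.476 ± 0.142 in WT with an edgeR adjusted p of 8.65e-05. The cytosine lies in coding exon 4 (chromosome 15, position 102149253), 46 bases upstream of that last base. Csf1r, the receptor of macrophage colony-stimulating factor, had 0 of 154 and 0 of 50 reads unconverted in KO, against 9 of 20 and 41 of 107 in WT. Its WT level was 0.417 ± 0.0473 in coding exon 17 (chromosome 18, position 61129085), with an edgeR adjusted p of 0.0425. One of its WT libraries had only 20 reads. The Csf1r call was lost without KO replicate 1 (adjusted p = 0.996) and without KO replicate 2 (0.145).

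The remaining sites that fell belong to genes with varied roles. Selenok, a selenoprotein of the endoplasmic reticulum, had 0 of 992 and 0 of 1027 unconverted reads in KO, against 162 of 1145 and 302 of 2153 in WT, in coding exon 4 (chromosome 14, position 29973423), 25 bases upstream of that last base. Its WT level was 0.141 ± 0.000859 (SD, n = 2), the smallest spread of all the sites that fell, and the edgeR adjusted p was 2.88e-20. Hdlbp encodes vigilin, an RNA-binding protein with many KH domains. Its site in 3' UTR exon 28 (chromosome 1, position 93408012) had 0 of 233 and 0 of 279 reads unconverted in KO, against 82 of 611 and 39 of 898 in WT (edgeR adjusted p = 9.41e-06). 3110040N11Rik, whose role is not stated in the files, had 0 of 304 and 1 of 219 in KO, against 76 of 655 and 78 of 509 in WT, in coding exon 4 (chromosome 7, position 81783092; edgeR adjusted p = 1.81e-05). Both genotypes were apart at these 3 sites.

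Tgm2, a transglutaminase that crosslinks proteins, was the site without CTCCA among those that fell. At its CTCTA in coding exon 11 (chromosome 2, position 158120262), 0 of 361 and 0 of 118 reads were unconverted in KO, against 49 of 557 and 36 of 565 in WT. The WT level was 0.0758 ± 0.0172 and the edgeR adjusted p 8.65e-05. Tmem250-ps, annotated as a pseudogene, had 0 of 118 and 0 of 141 in KO, against 17 of 101 and 57 of 239 in WT, in exon 2 of a noncoding transcript (chromosome 2, position 26137726; edgeR adjusted p = 0.0165). Without KO replicate 1 the adjusted p was 0.0515 at Tgm2, 0.148 at Tmem250-ps and 0.707 at Myom1. Tmem250-ps was also lost without KO replicate 2 (0.239) and without WT replicate 2 (0.0503). Limma on the logit of the level called 0 of the 523 sites (49 lower and 23 higher at an unadjusted p under 0.05), with adjusted p of 0.0677 at Selenok and 0.0741 at Myl4.

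The other 8 CTCCA sites did not pass the threshold, and all had KO levels between 0 and 0.00625. They were covered by 67 to 182 KO reads each (median 105), whereas the 10 that fell had 204 to 2019 (median 482.5). Their WT levels ran from 0.0701 to 0.192. Cux1, a homeodomain transcription factor, had 0 of 66 and 0 of 21 reads unconverted in KO, against 27 of 191 and 24 of 165 in WT (edgeR adjusted p = 0.356). Itga7, the laminin-binding integrin subunit of muscle, had 0 of 182 reads unconverted over both KO libraries, against 8 of 33 and 5 of 155 in WT (0.355). The 2 WT libraries agreed closely at Cux1 and stood far apart at Itga7. Rab11b, a GTPase of recycling endosomes, had 0 of 92 KO reads and a WT level of 0.157 ± 0.121 (SD, n = 2). Slc4a3, a chloride and bicarbonate exchanger, had 0 of 108 KO reads and a WT level of 0.0701 ± 0.0616, and 2310022A10Rik 0 of 67 KO reads and a WT level of 0.192 ± 0.164. At Rrp9, a protein of the U3 small nucleolar particle, 1 of 80 and 0 of 22 reads were unconverted in KO, against 18 of 100 and 5 of 74 in WT.

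The other 2 of these 8 sites lie in Selenok-ps8 and Selenok-ps5, processed copies of Selenok on chromosome 13 that share its 21 bases. Selenok-ps8 had 0 of 134 KO reads and a WT level of 0.187 ± 0.0351 (SD, n = 2), and Selenok-ps5 0 of 135 KO reads and a WT level of 0.166 ± 0.00554. After conversion of C to T, the 41 bases around the Selenok site occurred 6 times in the genome. Reads of Selenok and its copies may therefore have been assigned to one another. Longer reads can reach past this window, and how far they were kept apart could not be checked here. The same window occurred 3 times for Rab11b and 2 times each for Atpaf1 and Tufm. It occurred once at the other sites, apart from Myl4, Phyh and Cux1, where it crosses a splice junction and has no unspliced match.

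Tufm, the mitochondrial translation elongation factor Tu, was the second CTCTA site. It had 0 of 81 and 0 of 25 reads unconverted in KO, against 93 of 339 and 60 of 328 in WT, in coding exon 1 (chromosome 7, position 126487461). The WT level was 0.229 ± 0.0646 (SD, n = 2) and the edgeR adjusted p 0.0684, which became 0.0423 when sites with 10 reads were admitted and 0.0342 with robust estimation.

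**Figure D2:**
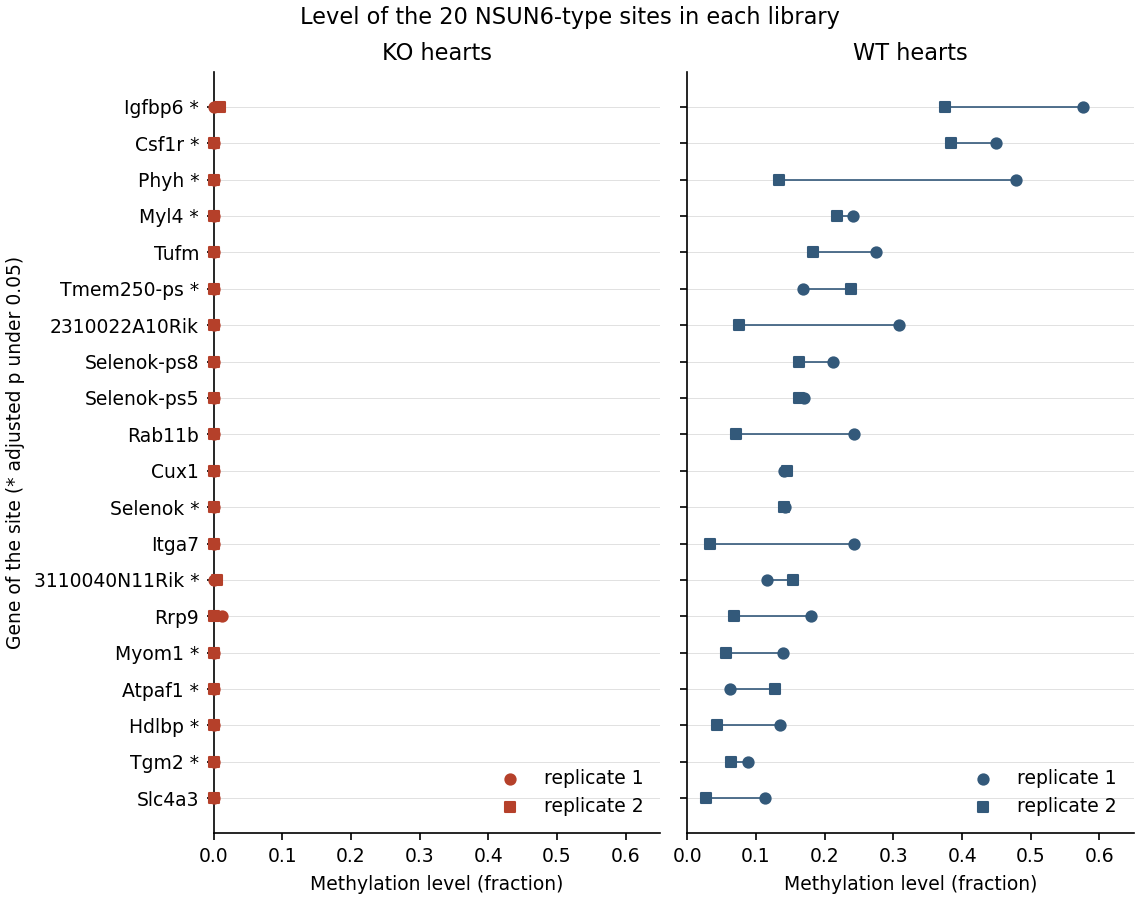
Methylation level (fraction) of the 20 CTCCA and CTCTA sites in each library, KO in the left panel and WT in the right panel, with circles for replicate 1 and squares for replicate 2 joined by a line, and an asterisk beside the genes of the 11 sites that fell. Every KO value lies at or next to 0, whereas the 2 WT replicates spread apart most at Phyh.

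At all 18 CTCCA sites both KO libraries lay below both WT libraries. Across the 523 sites this held for 120 (22.9%), and the opposite order for another 120 (22.9%). All 18 had entered through their WT levels and 0 through their KO levels, so a higher WT level was a condition of entry and the count describes these sites without testing them. Summed over the 18, 1 of 4174 and 2 of 3256 reads were unconverted in KO, which is 0.0240% (95% Clopper-Pearson interval 0.000607% to 0.133%) and 0.0614% (0.00744% to 0.222%). In WT 2569 of 11416 and 2447 of 13252 reads were unconverted, 22.5% (21.7% to 23.3%) and 18.5% (17.8% to 19.1%). The 3 KO reads belonged to Igfbp6, 3110040N11Rik and Rrp9.

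Mean levels by sequence class are given as a description, since the 18 CTCCA sites had all entered through WT while the other classes had entered through either genotype. The 18 CTCCA sites averaged 0.000739 ± 0.0000625 in KO and 0.187 ± 0.0591 in WT (SD over libraries, n = 2 each), a difference of -0.186, beside -0.0611 over all 87 listed CTCCA sites with 20 reads in all 4 heart libraries. The 94 CNGGG sites differed by 0.00237, with SDs of 0.0239 in KO and 0.0141 in WT. The other 411 sites averaged 0.131 ± 0.0311 in KO and 0.127 ± 0.0243 in WT. Neither of the last 2 classes differed by more than the spread between libraries of a genotype. In both, replicate 1 was above replicate 2 in KO and in WT.

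**Figure D3:**
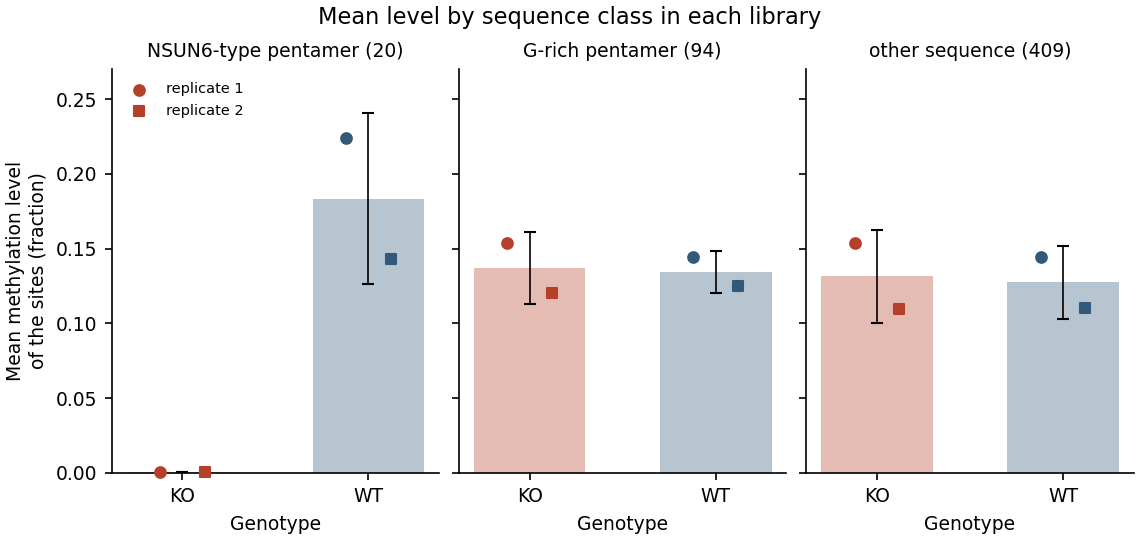
Mean methylation level (fraction) of the sites of each sequence class in each library, with KO left of WT in each panel, bars for the mean of 2 libraries, error bars for the SD, circles for replicate 1 and squares for replicate 2. The left panel holds the 20 CTCCA and CTCTA sites, the middle panel the 94 CNGGG sites and the right panel the other 409. Only the left panel shows KO points near 0.

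Some of these transcripts also carried a measured cytosine of another sequence, read in the same libraries, and all 6 such sites are given here. Tmem250-ps had a CNGGG site 8 bases downstream of its CTCCA, with 2 of 97 and 14 of 115 reads unconverted in KO, against 18 of 98 and 37 of 222 in WT (edgeR adjusted p = 0.722). There KO was lower in both libraries but kept unconverted reads, while at the CTCCA it had 0 of 259. In Myom1 a CAGAG site in exon 11 had 14 of 377 and 14 of 206 in KO, against 25 of 145 and 13 of 160 in WT, and a CAGGG site in exon 20 had 99 of 1850 and 33 of 566 in KO, against 202 of 1846 and 48 of 1714 in WT. The genotypes overlapped at the exon 20 site and lay apart at the exon 11 site, with KO lower, and neither passed (adjusted p = 0.992 and 0.639). Atpaf1 had a CAGTG site in exon 1 at 0.163 ± 0.0288 in KO and 0.106 ± 0.0846 in WT. Rab11b had a CAGGA site at 0.0549 ± 0.0355 in KO and 0.0504 ± 0.0629 in WT, and Slc4a3 a CACAT site at 0.0630 ± 0.0529 in KO and 0.0229 ± 0.0323 in WT (SD, n = 2 each). All 6 sites kept unconverted reads in both KO libraries. The Rab11b and Slc4a3 sites had met the criteria in KO only, so for them such reads were a condition of entry.

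Not every CTCCA in the listed transcripts was methylated in WT. Among listed sites, 87 with CTCCA had 20 reads in all 4 heart libraries, and 69 of these were outside the 523. At 35 of the 69 no read was unconverted in either genotype, at 6 some KO read was, and at 33 some WT read was. Summed over the 69, 23 of 42618 KO reads were unconverted, against 314 of 59332 WT reads. At 2 of the 69 the KO mean level was 0.05 or more, and KO replicate 1 held all their unconverted KO reads. Car8 had 9 of 40 and 0 of 41 reads unconverted in KO, against 0 of 34 and 2 of 43 in WT. Flcn had 6 of 60 and 0 of 46 in KO, against 0 of 29 and 0 of 188 in WT. Unconverted reads were seen in only 1 WT library at 24 of the 69. Of 18 listed CTCTA sites with 20 reads in all 4 libraries, 0 had an unconverted KO read and 7 an unconverted WT read.

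Predicted RNA folding was computed for 61 bases of spliced transcript centred on each cytosine, as a property that the choice of sites did not use. The windows of Selenok-ps8 and Selenok-ps5 reached past the end of the transcript and were not folded. Of the 18 CTCCA or CTCTA sites whose window could be folded, 13 (72.2%) had the cytosine in the loop of a hairpin in the structure of lowest free energy. The share was 10 of 46 (21.7%) at listed CTCCA or CTCTA sites with 0 unconverted WT reads, 12 of 94 (12.8%) at CNGGG sites and 90 of 408 (22.1%) at the other sites. The median probability that the cytosine was unpaired was 0.944 at the 18 sites, against 0.289 at the listed sites with 0 unconverted WT reads, 0.352 at CNGGG sites and 0.413 at the others. Myl4 (0.995), Selenok (0.999), Itga7 (0.999) and Cux1 (0.996) were among the highest. In the structure of lowest free energy Atpaf1 (0.0756), Rrp9 (0.0822), Slc4a3 (0.214), Tufm (0.237) and Tmem250-ps (0.719) were paired, and the sites of Atpaf1 and Tmem250-ps are among those that fell. These shares are a description, since copies of a gene and members of a class are not independent.

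**Figure D4:**
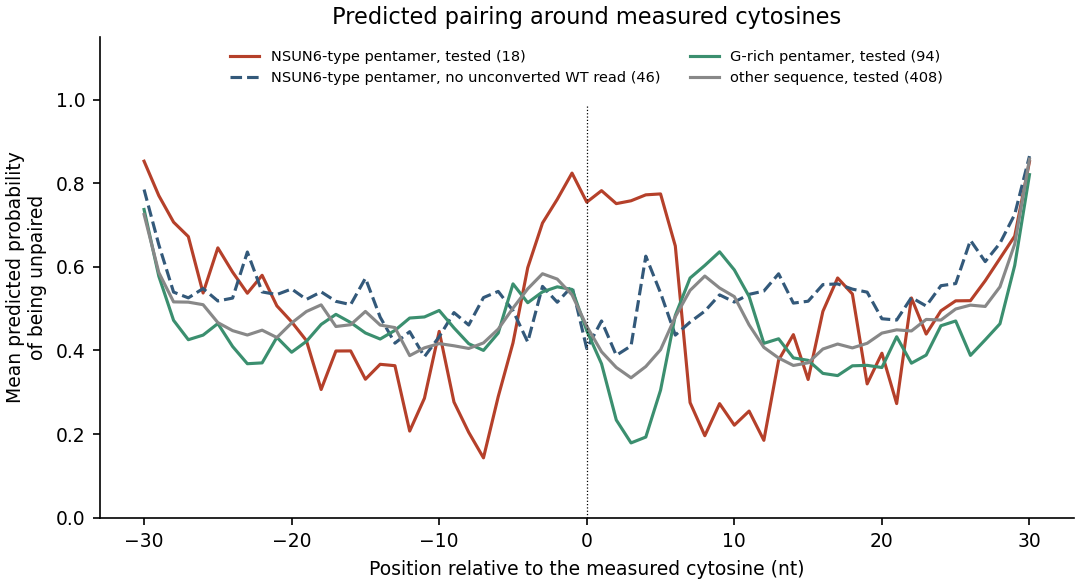
Mean predicted probability of being unpaired (vertical axis, 0 to 1) at each position from 30 bases before to 30 bases after the measured cytosine (horizontal axis, in nt), for 18 CTCCA or CTCTA sites among the 523 (red), 46 listed ones with 0 unconverted WT reads (blue, dashed), 94 CNGGG sites (green) and 408 other sites (grey). The red line stands at 0.755 at the cytosine and drops to 0.143 at 7 bases before it and 0.196 at 8 bases after it, while the blue line stands at 0.405 at the cytosine. All lines climb at the window's ends, where no partner is left.

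By position in the transcript, 306 of the 523 sites (58.5%) were coding, 180 (34.4%) lay in 3' UTRs, 19 in 5' UTRs, 17 in noncoding transcripts and 1 outside the annotated exons. Of the 11 sites that fell, 8 were coding, 2 lay in 3' UTRs and 1 in a noncoding transcript. Within 200 bases of the stop codon were 5 of the 11 (Myl4, Selenok, Igfbp6, Hdlbp and 3110040N11Rik), beside 108 of the 505 sites in transcripts with a stop codon. The 11 include Tmem250-ps, whose transcript has no stop codon. The 14 coding CTCCA or CTCTA sites fell on codon position 1 in 2 cases, position 2 in 6 and position 3 in 6. Over the 304 coding sites with a known frame the counts were 104, 75 and 125. Another listed cytosine within 50 bases was found for 93 of the 523 sites (17.8%) and for 1 of the 20 CTCCA or CTCTA sites.

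A second way of counting asked how many sites chosen on WT levels held no unconverted read in either KO library. There were 37 among 385 (9.61%), and with the genotypes exchanged 21 among 387 (5.43%). Of the 37, 15 had CTCCA, 2 had CTCTA and 20 had neither. Of the last 20 sites 0 passed edgeR's adjusted threshold (6 at an unadjusted p under 0.05). Their WT levels ran from 0.0638 to 0.314 (median 0.0924), close to the KO levels of the 21 sites at 0 in WT (0.0587 to 0.230, median 0.0907). With 50 reads required in both libraries of the genotype at 0, 14 sites were left in KO, 9 of them with CTCCA or CTCTA, and 11 in WT.

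Vwa8 and Pacs2 had the highest WT levels of these 20 sites. Vwa8, a mitochondrial AAA protein, had 0 of 38 and 0 of 46 unconverted reads in KO, against 12 of 20 and 4 of 140 in WT, in coding exon 25 (chromosome 14, position 79062627; edgeR adjusted p = 0.394). Pacs2, a sorting protein of the endoplasmic reticulum and mitochondria, had 0 of 30 and 0 of 60 in KO, against 10 of 23 and 7 of 127 in WT (edgeR adjusted p = 0.380). In both genes most of the WT level came from replicate 1, which had 20 and 23 reads there. Among the 21 sites at 0 in WT, the highest KO levels were at Zfp106, with 23 of 61 and 3 of 36 reads unconverted in KO, against 0 of 47 and 0 of 46 in WT, and at Rsph3a, with 15 of 44 and 3 of 28 in KO, against 0 of 67 and 0 of 93 in WT. KO replicate 1 held most of these reads. A further Vwa8 site with CNGGG, in exon 41, was at 0.381 in KO and 0.363 in WT.

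One site rose in KO. Ndufa12, an accessory subunit of respiratory complex I, had 10 of 48 and 43 of 823 reads unconverted in KO hearts, against 0 of 297 and 21 of 707 in WT hearts, in 3' UTR exon 4 (chromosome 10, position 94220863). The level was 0.130 ± 0.110 in KO and 0.0149 ± 0.0210 in WT (SD, n = 2 each; edgeR adjusted p = 0.0239). The larger KO level came from the library with 48 reads. The call was lost without KO replicate 1 (adjusted p = 0.402), without KO replicate 2 (0.102) and without WT replicate 1 (0.316). Large differences upwards that did not pass were at Rptor (0.732 in KO, 0.404 in WT), Gm17018 (0.271 in KO, 0.00667 in WT), Fahd2a (0.461 in KO, 0.207 in WT) and Mvp (0.323 in KO, 0.0915 in WT), with adjusted p of 0.457 to 0.714. Downwards they were at Gm50253 (0.0250 in KO, 0.356 in WT), Slc39a1 (0.142 in KO, 0.472 in WT), Vwa8 (0 in KO, 0.314 in WT), Pfkp (0.116 in KO, 0.396 in WT) and Gnptg (0.146 in KO, 0.425 in WT), with adjusted p of 0.380 to 0.675. The shallowest library of each of these sites had 20 to 50 reads.

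The sites with the highest levels in heart lacked CTCCA, apart from Igfbp6, and did not pass the threshold. Pabpc4, a cytoplasmic poly(A)-binding protein, had 21 of 21 and 42 of 58 reads unconverted in KO, against 101 of 119 and 57 of 87 in WT, in the 5' UTR. Corin, the protease of heart muscle that activates natriuretic peptides, had 359 of 488 and 35 of 88 in KO, against 247 of 352 and 186 of 294 in WT. The groups overlapped at both. Ccdc107 was at 0.565 ± 0.0881 in KO and 0.518 ± 0.0511 in WT, and Nomo1, a protein of the endoplasmic reticulum, at 0.597 ± 0.00382 in KO and 0.518 ± 0.286 in WT. Cenpv, a centromere protein, had 40 of 59 and 42 of 80 reads unconverted in KO, against 140 of 302 and 110 of 211 in WT, so that KO lay above WT in both libraries (edgeR adjusted p = 0.937). Aldh4a1, a mitochondrial enzyme of proline breakdown, was at 0.544 ± 0.102 in KO and 0.600 ± 0.0808 in WT. Tle5, a transcriptional corepressor, was at 0.441 ± 0.0476 in KO and 0.483 ± 0.0289 in WT, from 2219 KO reads. Afg3l1, a subunit of a mitochondrial protease, was at 0.595 ± 0.119 in KO and 0.475 ± 0.0922 in WT (SD, n = 2 each; edgeR adjusted p = 0.937), and its sequence reads CCGCA. The cytosine next to it was at 0.151 in KO and 0.151 in WT. A second Corin site, with CNGGG in coding exon 10, had 1 of 75 and 0 of 22 reads unconverted in KO, against 17 of 93 and 24 of 92 in WT, and an edgeR adjusted p of 0.394.

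Gene groups that fit the heart were then read out, and the m5C writers, readers and erasers had 0 measured sites. Over all 523 sites the median difference, KO minus WT, was 0.00590, and the share that fell was 2.10%, against which the small counts of each group are to be read. Of 9 sarcomere and contractile sites 2 fell (Myl4 and Myom1), and the median difference was -0.0531. The intermediate filament gene Des, by contrast, was at 0.229 ± 0.0211 in KO and 0.221 ± 0.0322 in WT. Hspb7, a small heat shock protein of muscle, was at 0.0400 ± 0.0141 in KO and 0.206 ± 0.0178 in WT without passing (edgeR adjusted p = 0.260), and its sequence reads CGCTG. Of 8 sites in genes of cardiac hormones, growth factors and receptors 2 fell (Igfbp6 and Csf1r, both genes that the study itself took up from these libraries), and the median difference was -0.0793. Igf2r, the receptor that clears IGF2, was at 0.342 ± 0.00526 in KO and 0.230 ± 0.0388 in WT without passing.

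Mitochondrial groups held the most sites. In the respiratory chain and ATP synthase 1 of 17 sites fell (Atpaf1) and 1 rose (Ndufa12), with a median difference of -0.00373. Cox8b, a heart and muscle subunit of cytochrome c oxidase, was at 0.398 ± 0.0115 in KO and 0.429 ± 0.0605 in WT. Ndufa10, of complex I, was at 0.322 ± 0.0286 in KO and 0.441 ± 0.0568 in WT, with no overlap between the genotypes and an edgeR adjusted p of 0.438. Uqcc2, an assembly factor of complex III, was at 0.231 ± 0.00250 in KO and 0.326 ± 0.0703 in WT (adjusted p = 0.355). In the citrate cycle and fatty acid oxidation 1 of 9 fell (Phyh), with a median difference of 0.0317. Idh3b, a subunit of isocitrate dehydrogenase, had a site in exon 9 with 3869 of 12393 and 1076 of 3921 reads unconverted in KO, against 2883 of 12602 and 2378 of 12502 in WT. KO was above WT there in both libraries, at 0.293 ± 0.0267 in KO and 0.209 ± 0.0273 in WT, with an edgeR adjusted p of 0.225. Decr1, which acts on unsaturated fatty acids, was at 0.0736 ± 0.0887 in KO and 0.267 ± 0.0132 in WT (adjusted p = 0.556). Slc25a4, which exchanges ADP for ATP across the inner mitochondrial membrane, was the deepest of the 4 carrier sites, with 14968 of 32999 and 7904 of 19037 reads unconverted in KO, against 27916 of 66659 and 35828 of 99782 in WT. Its levels overlapped between the genotypes (edgeR adjusted p = 0.597). The 12 sites of mitochondrial translation had a median difference of 0.0595 and 0 calls. They include the CTCTA site of Tufm, and 5 of the 12 had both KO libraries above both WT libraries and 2 the reverse, beside 22.9% of all 523 sites in each direction. Other groups also split unevenly. Of the 9 sarcomere and contractile sites, 0 had both KO libraries above both WT libraries and 6 the reverse. Mrpl42, of the large mitochondrial ribosomal subunit, had 15 of 96 and 16 of 564 unconverted reads in KO, against 13 of 521 and 2 of 546 in WT (edgeR adjusted p = 0.132).

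Elsewhere the counts were low. The 8 sites of cytosolic ribosomal proteins had 0 calls and a median difference of 0.00225. Rpl23 was at 0.409 ± 0.0469 in KO and 0.407 ± 0.0299 in WT, and Rpl34 at 0.264 ± 0.0249 in KO and 0.264 ± 0.0102 in WT (SD, n = 2 each). Of 8 sites in focal adhesion, cell junction and matrix genes 1 fell (Tgm2), with a median difference of -0.0784, and Itga7 belongs to the same group. Pgm5, a protein of adherens junctions, was at 0.503 ± 0.00806 in KO and 0.339 ± 0.0188 in WT without passing (edgeR adjusted p = 0.799). The 9 sites of translation factors and poly(A)-binding proteins had 0 calls and a median of -0.0565. Of 3 sites of selenoproteins and endoplasmic reticulum quality control 1 fell (Selenok). Among calcium handling genes there were 2 sites and 0 calls. The site of Atp2a2, the calcium pump of the sarcoplasmic reticulum, was at 0.199 ± 0.00355 in KO and 0.119 ± 0.0368 in WT (edgeR adjusted p = 0.269).

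The CTCCA and CTCTA sites and Ndufa12 were also read in the other tissues of the same genotypes, wherever all 4 libraries of a tissue had 20 reads. This gave 43 pairs of a site and another tissue over 17 of the 21 sites, and both KO libraries lay below both WT libraries in 25 of them and above in 0. Over all 523 sites there were 1236 such pairs, of which 12.1% had KO below and 9.95% KO above. The 43 pairs include Selenok and its copies on chromosome 13, so some molecules may have been counted more than once. Pairs of the same site in several tissues are not independent either. Selenok was at 0 in KO and 0.141 ± 0.000859 in WT in heart. Its WT levels were 0.0164 ± 0.00827 in small intestine, 0.0455 ± 0.0393 in liver, 0.0341 ± 0.0102 in spleen and 0.0360 ± 0.00283 in kidney (SD, n = 2 each), with 1 unconverted read among all KO reads of these 4 tissues. For Igfbp6 the small intestine had 12 of 1194 and 0 of 37 reads unconverted in KO, against 401 of 779 and 84 of 197 in WT, a WT level of 0.471 next to 0.476 in WT heart. Phyh was at 0.307 in WT heart, 0.0525 in WT kidney, 0.0344 in WT liver and 0.0146 in WT small intestine. Cux1 was at 0.143 in WT heart and 0.141 in WT kidney. Tmem250-ps was at 0.203 in WT heart, 0.0825 in WT small intestine, 0.0432 in WT kidney and 0 in WT liver and spleen. The sites had been chosen for their levels in heart, so higher values there are not evidence of a tissue difference. Myom1, Slc4a3, 2310022A10Rik and Itga7 had enough reads in heart alone. At the Ndufa12 site 1 of 383 KO reads was unconverted in small intestine and 0 of 129 in liver, and 0 reads in WT in either tissue.

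Whether the KO effect in heart differed from the mean of the other 4 tissues was tested at the 178 sites with 20 reads in all 20 libraries, 4 of them with CTCCA. The edgeR interaction test called 0 of 178 (0%), with 2 at an unadjusted p under 0.05. Limma called 5, with the KO effect higher in heart than elsewhere at Eif3d, Abhd12 and H2aj and lower at Tmem250-ps and Gnb2 (adjusted p of 0.0480 to 0.0484). Each of the 5 had met the criteria in 1 genotype of the heart alone and was at 0 in the other, so part of a larger difference in heart was a condition of entry and these calls are a description. At 110 of the 178 sites some tissue and genotype had no unconverted read in both libraries. In such a group the fitted log-odds has no lower bound, and 75 of the 110 sites had a p of 0.9 or more, against 7 of the other 68. The edgeR result thus says nothing about the sites that are at 0 in KO. The 5 smallest edgeR p-values were at Atp5b, Ube2f, Map2k2, Idh3b and Kcmf1, all with an adjusted p of 1. Atp5b, the catalytic beta subunit of ATP synthase, was at 0.117 in KO and 0.0891 in WT in heart, and between 0.000860 and 0.0190 in KO and WT of the other tissues.

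Read coverage was used as a second readout, with 1 listed site per gene and 4098 genes with 20 reads in all 4 libraries. In such bulk tissue, fewer cells of a type and less RNA per cell cannot be told apart. Coverage counts differed for 3 of 4098 genes (0.0732%; edgeR with TMM normalization, Benjamini-Hochberg adjusted p under 0.05), and 319 (7.78%) passed at an unadjusted p under 0.05. Both KO libraries lay below both WT libraries at 822 genes (20.1%) and above them at 664 (16.2%). Cox6a2, Ndufs8 and Cryab were higher in KO, and KO replicate 2 was the highest of the 4 libraries at all 3. Cox6a2, a muscle subunit of cytochrome c oxidase, had 72 and 6215 reads in KO, against 86 and 63 in WT (edgeR adjusted p = 1.39e-07). The 72 reads of KO replicate 1 lie within the WT range. Cryab, a small heat shock protein of muscle, had 72 and 523 reads in KO, against 35 and 41 in WT, so both KO libraries were above WT. Without KO replicate 1 the count was 99 genes, without KO replicate 2 it was 5, and without either WT replicate it was 0.

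Of the 20 genes with a CTCCA or CTCTA site, 0 passed the coverage threshold and 2 had an unadjusted p under 0.05. Their median log2 fold change, KO over WT, was -0.14, beside 0.03 over all 4098 genes, with 12 lower and 8 higher. In counts scaled to the effective library size (CPM), Myl4 had 747 and 524 in KO, against 6135 and 5445 in WT, a log2 fold change of -3.19 with an edgeR adjusted p of 0.0671. Tufm had 72.3 and 39.8 in KO, against 289 and 238 in WT (log2 fold change -2.22, adjusted p = 0.401). Igfbp6 had 98.2 and 167 in KO, against 409 and 250 in WT (-1.31, adjusted p = 0.697), and Csf1r, with 154 and 50 reads in KO against 20 and 107 in WT, had 1.19 (adjusted p = 0.697). Selenok was at 886 and 1636 in KO, against 978 and 1563 in WT (-0.01).

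Markers of the heart chambers were read beside Myl4. Of 8 atrial markers 3 were listed and 2 had coverage, summing to 778 and 572 CPM in KO, against 6154 and 5470 in WT, nearly all from Myl4 itself. The other one, Stard10, had 30.4 and 47.8 in KO, against 18.8 and 25.4 in WT, and Myl7, Nppa and Sln had no listed site. The 4 covered markers of ventricular and common heart muscle summed to 4662 and 2843 in KO, against 1824 and 1855 in WT. Myh6, the alpha myosin heavy chain, was at 833 and 937 in KO, against 196 and 128 in WT (log2 fold change 2.45, edgeR adjusted p = 0.341). Markers of smooth muscle and pericytes summed to 4345 and 3829 in KO, against 2580 and 2637 in WT, most of it from Des, which heart muscle also expresses. Markers of macrophages, Csf1r included, summed to 267 and 789 in KO, against 202 and 298 in WT. The part of the chambers or cell types sampled in these differences was not tested.

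**Figure D5:**
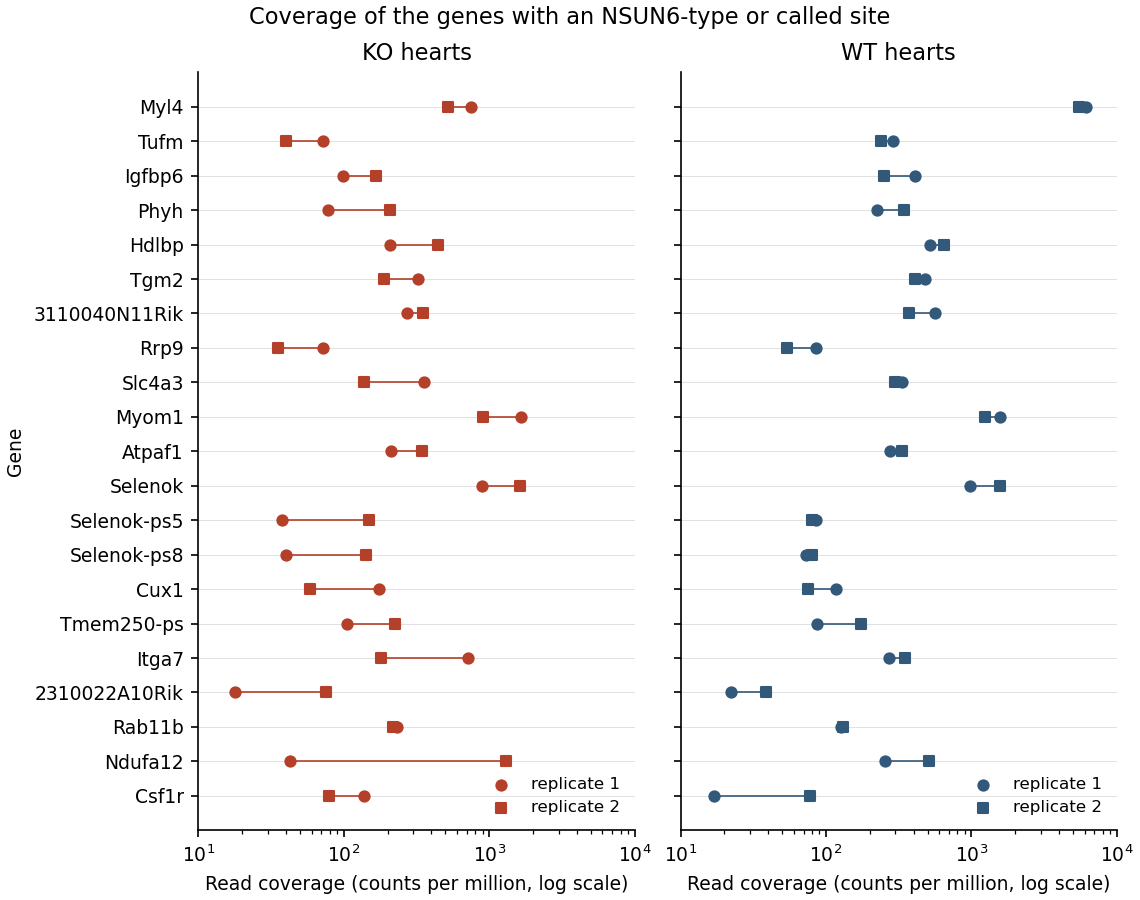
Read coverage in CPM (logarithmic axis) of the 20 genes with a CTCCA or CTCTA site and of Ndufa12 in each library, KO in the left panel and WT in the right panel, with circles for replicate 1 and squares for replicate 2. Genes run from the lowest ratio of KO to WT at the top (Myl4) to the highest at the bottom (Csf1r), and the 2 KO libraries of Ndufa12 lie farther apart than its WT libraries.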

How the data were processed

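Heart mRNA was captured, treated with bisulfite and sequenced as stranded libraries, and the authors called sites in each library with a published pipeline for RNA m5C. No aligner or version is named in the sources read, and the submitters' processing notes name mm10. The deposited table gives the coverage as a count of reads and the count of unconverted reads for each site and library. Levels were computed here as unconverted over coverage counts. The other 100 columns of values, including the authors' own levels, p-values and flags, were not used. All 32378 listed sites carry the authors' passed flag in some library, so the table holds chosen sites and not every cytosine.

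The members and gene lists were chosen with earlier results of these data known. Counts were fitted with edgeR 4.0.16 in R 4.3.3 (an intercept per library, a methylation term for KO, prior degrees of freedom 72.8, so a site's own spread carried little weight), with Benjamini-Hochberg adjustment. The prior was infinite in the interaction and coverage fits. Limma 3.58.1 on the logit with 0.5 added to both counts, Fisher's exact test on summed counts and DESeq2 1.42.0 for coverage were alternatives, as were other minimums (10 and 50 reads, a level of 0.1) and each library left out. Coverage counts used the listed site with the highest mean coverage per gene. Sites were placed with GENCODE M21 and folded with ViennaRNA 2.7.2. Python 3.11.15, pandas 2.3.3, numpy 2.4.6, scipy 1.17.1 and matplotlib 3.10.9 were used. The fits were tested on simulated counts of these libraries.

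Named sites were those past the threshold, every CTCCA site, the 10 highest in WT, the 5 largest differences in each direction below the threshold, the 10 highest in WT at 0 in KO, up to 4 per gene list, the 5 smallest interaction p, Igfbp6, Afg3l1 and Csf1r. Second sites of genes with a named site, Ndufs8, Mrpl42, Zfp106, Rsph3a, the sites limma called and sites outside the 523 were added after their values were seen. One site that the rule names is not reported here.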

Additional observations from a re-analysis of the deposited data

Results flagged for a closer look

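Outside the sites analysed above, 6 with CTCCA or CTCTA drew attention because WT held a mean level of 0.1 or more while 0 KO reads were unconverted. Each missed the criteria because one WT library had at most 1 unconverted read. The CTCTA site of Ryr2, the calcium release channel of the sarcoplasmic reticulum, had 0 of 289 and 0 of 87 reads unconverted in KO, against 14 of 23 and 0 of 49 in WT, a mean WT level of 0.304. Ephx2, the soluble epoxide hydrolase, had 0 of 36 and 0 of 114 in KO, against 28 of 62 and 1 of 34 in WT (mean WT level 0.241). Brd8, a bromodomain protein, had 0 of 43 and 0 of 39 in KO, against 9 of 25 and 0 of 136 in WT (0.180). In these 3 genes WT replicate 1 held nearly all unconverted reads. Psph, phosphoserine phosphatase, had 0 of 32 and 0 of 41 in KO, against 1 of 83 and 24 of 91 in WT (0.138), with WT replicate 2 the higher one. Kyat1, a kynurenine aminotransferase, had 0 of 22 and 0 of 28 in KO, against 5 of 20 and 0 of 29 in WT (0.125), and Neurl4 had 0 of 68 and 0 of 27 in KO, against 7 of 31 and 1 of 42 in WT (0.125). No test was run on these sites.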

How the results depend on the processing

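With 2 libraries per genotype, the calls rested on a spread pooled over sites, and the CTCCA sites that missed the threshold had fewer KO reads than those that passed. The cause of the changes below was not tested.

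Against 11 sites lower, 1 higher and 10 CTCCA sites lower, limma gave 0, 0 and 0 (49, 23 and 17 at an unadjusted p under 0.05). Fisher's exact test, which holds no spread between libraries, gave 127, 148 and 18. A mean level of 0.1 left 6, 0 and 6 of 343 sites, and no filter on level left 3, 0 and 2 of 7920. The higher count was 2 with a minimum of 10 reads and 0 with 50. Leaving out one library gave 7 to 14 lower, 0 to 4 higher and 7 to 10 with CTCCA. The lower count was 7 without KO replicate 1, and the higher count was 0 without KO replicate 1, 2 without WT replicate 1 and 4 without WT replicate 2. The labels do not pair the replicate numbers, and same-numbered libraries correlated at -0.145 in their deviations. With the replicate number as a block, 9 sites were lower and 2 higher (8 with CTCCA), Csf1r (adjusted p = 0.160) and Tmem250-ps (0.0571) were lost and Mrpl42 was gained. The crossed pairing, chosen after seeing the data, gave 10 lower and 1 higher.

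The mean CTCCA difference ranged from -0.228 to -0.144 over the libraries left out and was -0.0611 over every listed site with 20 reads. It kept its direction in all settings run. With a library left out this was fixed in advance, since both KO libraries lay below both WT libraries at every tested CTCCA site. The mean difference of sites without CTCCA ranged from -0.0179 to 0.0242. Sites at 0 in KO numbered 57 without KO replicate 1, 79 without KO replicate 2 and 14 with 50 reads. Limma called 5 interaction sites. Genes with changed coverage numbered 84 by DESeq2, 0 with the replicate block, 0 with a mean of 20 reads, and 0 to 99 with a library left out. Of 257 settings of single tested sites 207 kept their side of the threshold, 39 lost it and 11 gained it. A reversed direction was not possible, since the libraries of the genotypes did not overlap at any of these sites.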
